A study of Mus musculus with 6 samples.

Results

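Collagen chains were taken from the deposited expression table by name, as every gene named Col, a number, a and a number that held a value in all 6 libraries. This gave 42 genes among the 21553 with a value. Both kidneys were dissected at E13.5 from 3 Fat4-/- mouse embryos and from 3 wildtype (Fat4+/+) littermates, offspring of 1 pregnant female on a C57BL6/6 background (6 backcrosses). Each library held the pair of kidneys of 1 embryo, largely freed of ureter, and every p-value here rests on the spread among embryos of 1 litter. The labels do not say which part of Fat4 the mutation removes, and name no tissue-specific driver. The unit of every level is cRPKM, which counts a gene's reads per kilobase relative to its library's mapped reads, after a correction, and because it is per length it allows chains to be compared. Nephron progenitor markers (249 to 351 cRPKM summed over 7 genes) and ureteric epithelium markers (214 to 257 over 8 genes) were present in every library.

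Collagens are trimers of chains wound into a triple helix, and the class of a collagen follows from the structure its trimers build. Fibrillar collagens form the ropes of loose and dense connective tissue, whereas type IV collagen forms the sheet-like network of basement membranes. The FACIT collagens (fibril-associated collagens with interrupted triple helices) sit on fibrils, type VI builds beaded filaments, and a small group spans the cell membrane. In the embryonic kidney the ureteric bud and the forming nephrons rest on basement membranes, while the stroma around them makes the fibrillar matrix.

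The 3 wildtype values of Fat4, an atypical cadherin, were 16.74, 15.69 and 16.83 cRPKM, and the 3 Fat4-/- values were 7.82, 7.20 and 7.49. This separated the libraries by their labels without showing what remains of the gene. Transcripts of 4 Y-linked genes (Uty, Kdm5d, Ddx3y and Eif2s3y) summed to between 65.3 and 73.0 cRPKM in the wildtype libraries and to 69.6 in mutant embryo 1, but to 0.08 and 0.15 in mutant embryos 2 and 3, so sex was uneven between the groups. Summed over all genes, libraries held 473695 to 503223 cRPKM, and their read totals are unknown.

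Collagen chains held between 0.198% and 0.249% of the summed cRPKM of a library. The 3 wildtype libraries were at 0.249%, 0.204% and 0.209% and the 3 mutant libraries at 0.198%, 0.1997% and 0.219%. The means were 0.220% ± 0.0247 and 0.206% ± 0.0119 (SD, n = 3), a difference smaller than the wildtype spread, with wildtype embryo 1 above all others. The 5 most abundant chains (Col3a1, Col1a1, Col1a2, Col4a1 and Col4a2) held 68.1% to 69.8% of the collagen cRPKM in each library. By class, fibrillar chains held 58.8% of it, the type IV network 22.3%, the basement membrane zone types VII, XV and XVIII 7.07%, type VI 5.93% and FACIT chains 3.84%. Transmembrane chains held 1.31% and the short chain types VIII and X 0.776%.

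**Figure D1:**
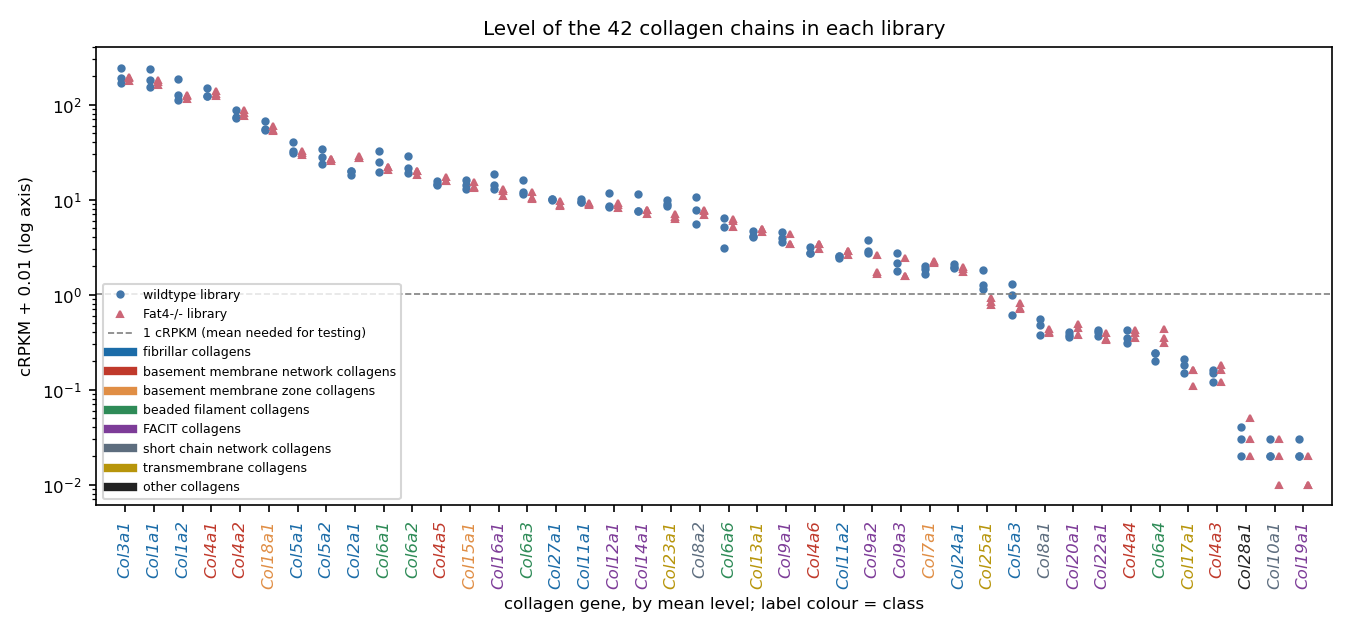
Level of each of the 42 collagen chains in the 3 wildtype (circles) and 3 Fat4-/- (triangles) libraries, as cRPKM + 0.01 on a log axis, ordered by mean, with gene labels coloured by class. Levels run from 194 cRPKM on average for Col3a1 to under 0.02 for Col10a1 and Col19a1, and 31 chains lie above the mean of 1 cRPKM needed for testing.

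Of the 42 chains, 31 averaged 1 cRPKM or more and were tested, as part of a fit across all 12315 such genes (limma on log2(cRPKM + 1)). Col2a1 rose and Col23a1 fell in the mutant kidneys after adjustment over all tested genes. These are 2 of the 31 chains, or 6.45%, against 1.43% of all genes tested, with 1 of 31 higher against 0.552% and 1 of 31 lower against 0.877%. At an unadjusted p under 0.05 there were 8 chains (25.8%, against 13.0% of all genes), 3 of them higher (5.08% of all genes) and 5 lower (7.97% of all genes). Mutant and wildtype values did not overlap for 9 chains (29.0%, against 18.2% of all genes), 3 with the mutants above (7.23% of all genes) and 6 with the mutants below (11.0% of all genes). The fold change lay below 0 for 23 of the 31 chains (74.2%, against 56.8% of all genes), and the median log2 fold change was -0.10, against -0.01 for all genes. Without wildtype embryo 1, 16 of 30 chains lay below 0 (53.3%, as of all genes), the median was -0.02, and 4 chains were higher (13.3%, against 3.68% of all genes) and 3 lower (10%, against 5.70%) at an unadjusted p under 0.05. These counts cover the chains that passed the minimum and are given as a description. Col25a1, among the chains that were lower or did not overlap, passed it through its wildtype values alone, so its direction follows in part from the minimum.

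**Figure D2:**
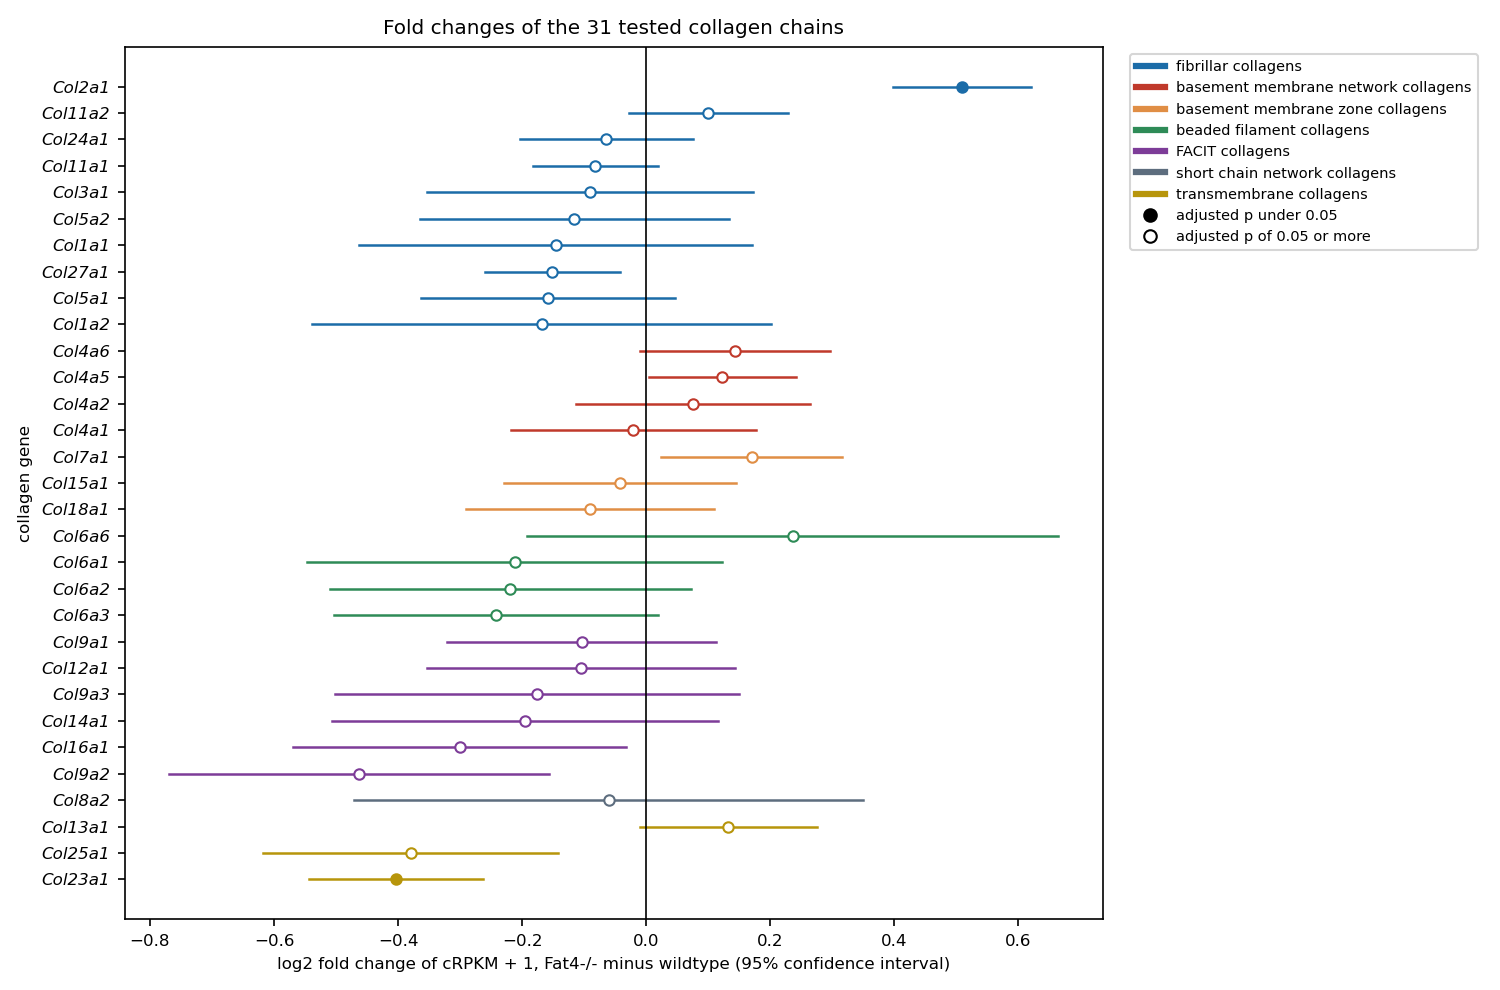
Log2 fold change of cRPKM + 1, Fat4-/- minus wildtype, with 95% confidence intervals for the 31 tested collagen chains, grouped and coloured by class; filled points have an adjusted p under 0.05. Col2a1 at 0.51 and Col23a1 at -0.40 are the filled points, and the intervals of Col1a1, Col1a2, Col6a1 and Col8a2 are wide.

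The upstream sequence of the gene that fell and of the most abundant chain is shown for their different base content. RefSeq windows on GRCm38.p6 were matched by symbol for 34 of the 42 chains, in 37 windows. Col2a1, the gene that rose, and Col1a1 were among the chains without a window. The 150 bases before the RefSeq start are printed in lower case 5′ to 3′ on the coding strand, with matched motifs in capitals. These were CCAAT on either strand, the GC box letters GGGCGG on either strand, the longer TATA box letters TATAAA on either strand, and TATA alone on the coding strand between 40 and 16 bases before the start, so that the last pair can overlap. The Col23a1 stretch (chr11:51289770-51289919, plus strand) was 76.7% G or C and held a GGGCGG match on the other strand, 11 bases before the start. The Col3a1 stretch (chr1:45311388-45311537, plus strand) was 37.3% G or C and held the longer TATA motif 117 bases before the start and the shorter one 29 bases before it.
Col23a1: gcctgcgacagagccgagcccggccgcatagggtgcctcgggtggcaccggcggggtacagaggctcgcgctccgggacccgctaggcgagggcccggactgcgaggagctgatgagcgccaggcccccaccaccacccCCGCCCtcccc
Col3a1: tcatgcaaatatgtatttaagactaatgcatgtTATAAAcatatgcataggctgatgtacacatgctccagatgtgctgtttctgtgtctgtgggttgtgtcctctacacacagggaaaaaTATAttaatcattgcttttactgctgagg

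In the 250 bases before the start, GGGCGG on either strand stood in 21 of the 37 collagen windows (56.8%), against 32.7% of all 32851 windows. CCAAT on either strand stood in 13 (35.1%, against 33.9%) and TATAAA in 5 (against 12.4% of all windows). TATA in its narrow place before the start was found in 2 windows, those of Col3a1 and Col10a1 (5.41%, against 5.91%). A window can hold more than 1 of these motifs, and a match of letters is not a bound site.

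Among fibrillar chains, Col2a1 stood apart from the rest. Col2a1 (ENSMUSG00000022483, chromosome 15, 97975602 to 98004695, GRCm38) encodes the chain of type II collagen, a homotrimer best known as the fibril of cartilage and also made by some embryonic epithelia. It measured 18.22, 19.83 and 20.18 cRPKM in the wildtype embryos against 27.34, 29.01 and 27.72 in the mutants. All mutant values were above all wildtype values, and each group was tight. The mean rose from 19.4 ± 1.05 to 28.0 ± 0.875 cRPKM (SD, n = 3), to 144% of wildtype, with a log2 fold change of 0.51 (95% interval 0.40 to 0.62, limma adjusted p = 0.00438). Leaving out each library in turn gave 0.47 to 0.54 with an adjusted p of at most 0.0265. With the Y-linked level as a covariate the fold change was 0.47 but the adjusted p was 0.183. Mutant embryo 1, whose Y-linked genes were at the wildtype level, had Col2a1 at 27.34 cRPKM. With 1 such mutant the comparison within a sex has no replicate check, and the part of sex in the result was not tested apart from the covariate.

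Cartilage markers did not move as 1 group. The 7 measured of 8 cartilage markers summed to between 10.8 and 11.4 cRPKM in the wildtype libraries and to between 9.70 and 10.1 in the mutant libraries, and 6 of the 7 were under 1 cRPKM in every library. Acan, the core protein of cartilage proteoglycan, was at most 0.06 cRPKM and Ucma was listed at 0 throughout. Hapln1, a link protein of hyaluronan matrix, held most of that sum, at 9.61 to 10.51 cRPKM in wildtype and 8.40 to 8.91 in mutant libraries. Lect1 was low, at 0.46, 0.56 and 0.56 cRPKM in the wildtype embryos and 0.44, 0.43 and 0.34 in the mutants. Matn1, a cartilage matrilin, lay the other way at a low level, with 0.23, 0.30 and 0.28 cRPKM in the wildtype embryos and 0.43, 0.61 and 0.44 in the mutants. Matn3 ranged from 0.14 to 0.17 and from 0.17 to 0.21. Without overlap, 2 of the 7 (Hapln1 and Lect1) were lower in the mutants and 1 (Matn1) higher. The shares among all tested genes were 11.0% and 7.23%, but only Hapln1 of the 7 reached the minimum for testing. Col10a1, the type X chain of hypertrophic cartilage, was at 0.00 to 0.02 cRPKM. Of the chains that build the cartilage fibril together with type II, Col11a2 was at 2.51 ± 0.0586 and 2.76 ± 0.165, Col11a1 at 9.63 ± 0.340 and 9.04 ± 0.211, and the mutant means of the type IX chains lay below their wildtype means. The sum of 7 nephron progenitor markers did not overlap between groups, at 249 to 291 cRPKM in wildtype and 309 to 351 in mutant libraries. Of the 7, 5 were higher in every mutant than in any wildtype embryo, against 7.23% of all genes tested. Cited1 and Crym overlapped. Crym measured 43.80, 44.94 and 23.80 cRPKM in the wildtype embryos against 30.56, 34.24 and 33.11 in the mutants. The part of these markers in the result was not tested, and in whole kidneys more cells of a type and more RNA per cell cannot be told apart.

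**Figure D3:**
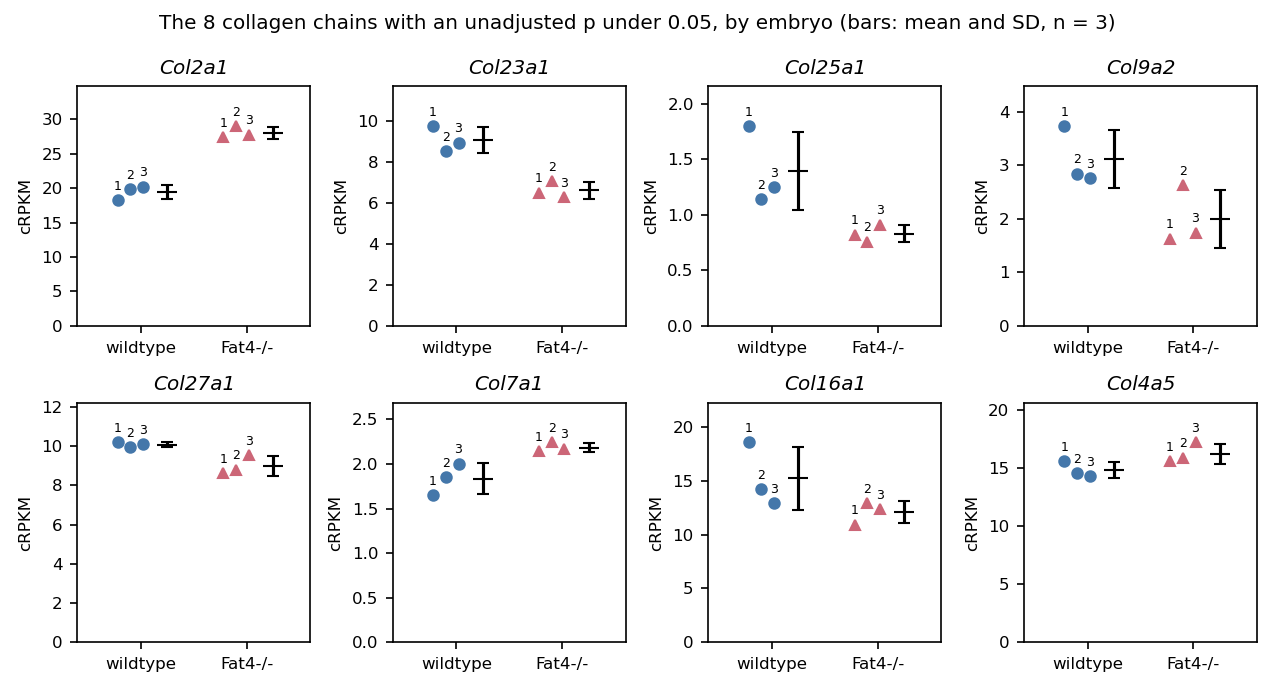
cRPKM of the 8 collagen chains with an unadjusted p under 0.05 in each embryo (numbered points; circles wildtype, triangles Fat4-/-), with the mean and SD of each group of 3 beside them. The groups are well apart for Col2a1 and Col23a1, and the lowest Col9a2 value of wildtype (2.76) lies close to the highest of the mutants (2.62).

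The abundant fibrillar chains, those of types I, III and V that make the fibrils of interstitial matrix, did not pass. Col3a1, the chain of type III, was the highest collagen at 243.68, 190.31 and 170.74 cRPKM in the wildtype embryos against 177.74, 194.57 and 189.60 in the mutants. Col1a1, which supplies most chains of type I, measured 238.34, 182.40 and 153.27 cRPKM in the wildtype embryos against 159.06, 170.81 and 180.71 in the mutants. Col1a2, its partner, measured 185.91, 126.15 and 110.73 in the wildtype embryos against 115.70, 127.35 and 123.80 in the mutants. In all of these wildtype embryo 1 was far the highest while wildtype embryo 3 was under every mutant library, so the wildtype range enclosed the mutant range. The log2 fold changes were -0.09 for Col3a1, -0.15 for Col1a1 and -0.17 for Col1a2, with 95% intervals of -0.35 to 0.17, -0.46 to 0.17 and -0.54 to 0.20 (limma adjusted p = 0.806, 0.727 and 0.731). Without wildtype embryo 1 the fold changes turned to 0.05, 0.02 and 0.05.

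Type V chains, which nucleate type I fibrils, were likewise highest in wildtype embryo 1. Col5a1 measured 40.36, 32.36 and 31.16 cRPKM in the wildtype embryos against 29.37, 30.75 and 32.11 in the mutants (log2 fold change -0.16, 95% interval -0.36 to 0.05, limma adjusted p = 0.516). Col5a2 measured 34.12, 28.22 and 23.67 in the wildtype embryos against 25.18, 26.47 and 26.67 in the mutants (-0.12, 95% interval -0.37 to 0.13, adjusted p = 0.726). Without wildtype embryo 1, Col5a1 was at -0.05 and Col5a2 at 0.01. Col5a3, a minor type V chain, ranged from 0.60 to 1.27 cRPKM and was below the minimum. Col3a1 and Col5a2 are neighbours on chromosome 1, on opposite strands with 24.6 kb between them.

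Types XI, XXIV and XXVII differed less between libraries of a group. Col11a1, a chain of the thin fibrils that type XI nucleates, measured 10.02, 9.47 and 9.40 cRPKM in the wildtype embryos against 9.24, 8.82 and 9.06 in the mutants, and the groups did not overlap (log2 fold change -0.08, limma adjusted p = 0.492). Col11a2 measured 2.44, 2.53 and 2.55 in the wildtype embryos against 2.57, 2.85 and 2.86 in the mutants, so its mutants were all above (0.10, adjusted p = 0.516). Col27a1, the type XXVII chain, known from cartilage, measured 10.19, 9.96 and 10.11 in the wildtype embryos against 8.61, 8.81 and 9.55 in the mutants. Its mutants were all below wildtype, at 89.1% of the wildtype mean (log2 fold change -0.15, 95% interval -0.26 to -0.04, unadjusted p = 0.0124, limma adjusted p = 0.210). Col24a1 was at 1.99 ± 0.112 and 1.86 ± 0.111 cRPKM (SD, n = 3), with overlapping groups.

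In the type IV network no chain passed. Col4a1 and Col4a2, which form the trimer found in nearly all basement membranes, were the next most abundant chains after types III and I. Col4a1 measured 123.15, 123.33 and 150.83 cRPKM in the wildtype embryos against 127.96, 122.04 and 140.37 in the mutants (log2 fold change -0.02, 95% interval -0.22 to 0.18, limma adjusted p = 0.952). Col4a2 measured 72.10, 73.76 and 87.39 in the wildtype embryos against 81.21, 75.79 and 88.58 in the mutants (0.08, 95% interval -0.11 to 0.26, adjusted p = 0.769). Both chains were highest in the third embryo of each group, and the groups overlapped. Without wildtype embryo 3, Col4a1 was at 0.08.

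Col4a5 and Col4a6, the X-linked chains that enter specialised basement membranes, were lower in level. Col4a5 measured 15.57, 14.54 and 14.28 cRPKM in the wildtype embryos against 15.57, 15.86 and 17.17 in the mutants, where mutant embryo 1 equalled wildtype embryo 1. Its log2 fold change was 0.12 (95% interval 0.0041 to 0.24, unadjusted p = 0.0441, limma adjusted p = 0.364). Col4a6 measured 3.15, 2.75 and 2.73 in the wildtype embryos against 3.42, 3.01 and 3.41 in the mutants (0.14, adjusted p = 0.420). Both genes lie on the X chromosome, and sex was uneven between the groups. In the mutant embryos without Y-linked transcripts Col4a5 was at 15.86 and 17.17 and in the mutant embryo with them at 15.57. Col4a6 was at 3.01 and 3.41 in the former and at 3.42 in the latter. With the Y-linked level as a covariate the log2 fold change was 0.07 for Col4a5 and 0.19 for Col4a6. The part of sex in these values was not tested apart from the covariate. Col4a3 and Col4a4, which join Col4a5 in the mature glomerular membrane, were at 0.11 to 0.17 and 0.30 to 0.41 cRPKM, too low to test.

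The type IV genes lie in head-to-head pairs. In GENCODE M21 on GRCm38 the start of Col4a1 on the minus strand (chromosome 8, 11312826) and that of Col4a2 on the plus strand (11312805) overlap by 22 bases, those of Col4a3 and Col4a4 on chromosome 1 are 71 bases apart, and those of Col4a5 and Col4a6 on the X chromosome are 1308 bases apart. The sources used here do not state how strand was handled, so reads from the overlap of Col4a1 and Col4a2 could count for either gene.

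Of the basement membrane zone collagens, none passed. Col18a1, whose C-terminal fragment is endostatin, measured 55.05, 53.92 and 67.87 cRPKM in the wildtype embryos against 53.85, 52.41 and 58.98 in the mutants (log2 fold change -0.09, limma adjusted p = 0.735). Col15a1, its close relative, measured 14.28, 12.88 and 16.02 in the wildtype embryos against 13.09, 13.47 and 15.23 in the mutants (-0.04, adjusted p = 0.881). Like the main type IV chains, both were highest in the third embryo of each group. Col7a1, which forms anchoring fibrils under epithelia, measured 1.65, 1.85 and 2.00 in the wildtype embryos against 2.14, 2.24 and 2.17 in the mutants. Its mutants were all above wildtype (log2 fold change 0.17, 95% interval 0.02 to 0.32, unadjusted p = 0.0277, limma adjusted p = 0.303).

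No FACIT chain passed. All 6 tested had fold changes below 0, as did 56.8% of all genes, with a median of -0.19. The median was -0.05 without wildtype embryo 1, where Col12a1 turned to 0.034. Col9a2, which with Col9a1 and Col9a3 makes the type IX trimer of cartilage and some embryonic epithelia, measured 3.73, 2.84 and 2.76 cRPKM in the wildtype embryos against 1.63, 2.62 and 1.74 in the mutants. The mutants were all below wildtype, with mutant embryo 2 close to the wildtype values (log2 fold change -0.46, 95% interval -0.77 to -0.16, unadjusted p = 0.00808, limma adjusted p = 0.170). Col9a1 measured 4.52, 3.61 and 3.98 in the wildtype embryos against 3.40, 4.32 and 3.36 in the mutants, and its groups overlapped (-0.10, adjusted p = 0.713). Col9a3 measured 2.75, 1.77 and 2.13 in the wildtype embryos against 1.56, 2.44 and 1.56 in the mutants, also overlapping (-0.18, adjusted p = 0.668). All 3 type IX chains were highest in mutant embryo 2 among the mutants and in wildtype embryo 1 among the wildtypes.

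Col16a1, a FACIT of fibrils and of epithelial borders, was the highest of its class. It measured 18.53, 14.18 and 12.91 cRPKM in the wildtype embryos against 10.92, 12.90 and 12.32 in the mutants, where wildtype embryo 3 and mutant embryo 2 nearly met (log2 fold change -0.30, unadjusted p = 0.0325, limma adjusted p = 0.320). Without wildtype embryo 1 it was at -0.16. Col12a1, a FACIT of dense connective tissue, measured 11.67, 8.32 and 8.63 in the wildtype embryos against 8.74, 8.23 and 9.16 in the mutants (-0.11, adjusted p = 0.754). Col14a1, a related fibril regulator, measured 11.54, 7.57 and 7.57 in the wildtype embryos against 7.81, 7.67 and 7.04 in the mutants (-0.19, adjusted p = 0.616). Apart from wildtype embryo 1, both chains stayed within a narrow band in the other 5 libraries. Col20a1 ranged from 0.35 to 0.48 cRPKM, Col22a1 from 0.32 to 0.41 and Col19a1 from 0.00 to 0.02.

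Type VI, whose beaded filaments surround mesenchymal cells, had wildtype embryo 1 highest in every tested chain. Col6a1 measured 32.18, 24.64 and 19.39 cRPKM in the wildtype embryos against 20.53, 21.78 and 21.76 in the mutants (log2 fold change -0.21, 95% interval -0.55 to 0.12, limma adjusted p = 0.614). Col6a2 measured 28.72, 21.54 and 18.87 in the wildtype embryos against 18.31, 19.85 and 19.97 in the mutants (-0.22, adjusted p = 0.531). Col6a3, the large chain, measured 15.90, 11.99 and 11.45 in the wildtype embryos against 10.08, 10.44 and 12.05 in the mutants (-0.24, adjusted p = 0.426). Without wildtype embryo 1 the fold changes were -0.03, -0.06 and -0.10. Col6a6, which can take the place of Col6a3, measured 6.39, 5.19 and 3.11 in the wildtype embryos against 6.31, 5.08 and 5.91 in the mutants, low in wildtype embryo 3 alone (0.24, adjusted p = 0.665). Col6a4 was too low to test at 0.19 to 0.42 cRPKM, although its mutant values (0.34, 0.42 and 0.30) were above all wildtype values (0.23, 0.23 and 0.19). Col6a1 and Col6a2 are neighbours on chromosome 10, on the same strand and 85.2 kb apart.

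Transmembrane collagens, which are single-pass membrane proteins with collagenous ectodomains, gave the called fall. Col23a1 (ENSMUSG00000063564, chromosome 11, 51289920 to 51583918, GRCm38) measured 9.78, 8.54 and 8.97 cRPKM in the wildtype embryos against 6.52, 7.09 and 6.29 in the mutants. All mutants were below all wildtypes. The mean fell from 9.10 ± 0.630 to 6.63 ± 0.412 cRPKM (SD, n = 3), to 72.9% of wildtype, with a log2 fold change of -0.40 (95% interval -0.54 to -0.26, limma adjusted p = 0.0229). The size varied from -0.45 to -0.35 without each library in turn, but the adjusted p rose to 0.0579 without wildtype embryo 1 and to 0.0901, 0.0594 and 0.0921 without mutant embryos 1, 2 and 3. It was 0.446 with the Y-linked level as a covariate and 0.0820 with no minimum level.

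Col25a1, a transmembrane chain known from neurons and motor axon growth, measured 1.80, 1.14 and 1.25 cRPKM in the wildtype embryos against 0.82, 0.76 and 0.91 in the mutants. The groups did not overlap, and the mutant mean was 59.4% of wildtype (log2 fold change -0.38, 95% interval -0.62 to -0.14, unadjusted p = 0.00595, limma adjusted p = 0.142). It reached the minimum of 1 cRPKM through its wildtype values, and without wildtype embryo 1 it was below the minimum. Col25a1, Col11a1 and Col24a1 lie on chromosome 3 with Fat4, 91.1, 75.0 and 106 Mb beyond it. Nerve and neural crest markers summed to 10.2 to 12.9 cRPKM in wildtype and 10.7 to 13.8 in mutant libraries over 7 genes, most of it Stmn2 (6.94 to 10.97). Within that list Sox10 and Foxd3, both near 0, were lower in every mutant than in any wildtype embryo (2 of 7, against 11.0% of all genes tested). Sox10 measured 0.05, 0.24 and 0.05 cRPKM in the wildtype embryos against 0.01, 0.02 and 0.03 in the mutants, and Foxd3 was at most 0.03. The share of all genes covers only those averaging 1 cRPKM or more, so it is not a like measure for these 2. The rest of the list overlapped. Stmn2 measured 9.68, 6.94 and 7.32 cRPKM in the wildtype embryos against 9.38, 10.97 and 8.08 in the mutants. The part of nerve and neural crest cells in Col25a1 was not tested. Col13a1, found at sites of cell adhesion, measured 4.08, 4.04 and 4.67 in the wildtype embryos against 4.51, 4.94 and 4.84 in the mutants (0.13, adjusted p = 0.422). Col17a1, the hemidesmosome collagen of stratified epithelia, ranged from 0.10 to 0.20 cRPKM.

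Of the short chain collagens, Col8a2, a chain of hexagonal networks, measured 10.70, 7.85 and 5.48 cRPKM in the wildtype embryos against 6.81, 7.61 and 7.80 in the mutants (log2 fold change -0.06, limma adjusted p = 0.931). Wildtype embryos 1 and 3 lay on either side of all mutants. Col8a1, its partner, ranged from 0.37 to 0.54 cRPKM. Col28a1, placed in no class above, ranged from 0.01 to 0.04.

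Wildtype embryo 1 was the highest of the 6 libraries for 21 of the 31 tested chains (67.7%), against 24.0% of all tested genes. These included all 6 FACIT chains, all 4 type VI chains and 8 of 10 fibrillar chains (those other than Col2a1 and Col11a2). They also included 2 of 3 transmembrane chains and Col8a2, but none of the 7 type IV and basement membrane zone chains. Of the transmembrane chains counted, Col25a1 was below the minimum without wildtype embryo 1, so its place here follows in part from the minimum. Wildtype embryo 3 was the highest for 3 chains (9.68%, against 20.2% of all genes), Col4a1, Col15a1 and Col18a1. The median chain in wildtype embryo 1 was 1.27 times the mean of the other wildtype libraries, against 1.01 for all genes, and the ratio reached 1.57 for Col1a2 and 1.61 for Col8a2. On the log2(cRPKM + 1) scale, the median deviation of that library from the mean of the libraries was 0.42 for type VI, 0.38 for FACIT and 0.20 for fibrillar chains. It was 0.30 for transmembrane chains and 0.45 for the 1 tested short chain gene, but -0.04 for both basement membrane classes. In the same library 9 stroma markers summed to 420 cRPKM, while embryos 2 and 3 of the wildtype had 392.09 and 350 and the mutants 329 to 354. It was the highest library for 4 of these 9 genes, and Postn alone was at 77.85 cRPKM there against 49.51 in wildtype embryo 2, while Foxd1, Snai2, Meis1 and Ntn1 were lower in it than in wildtype embryo 2. Skeletal muscle markers summed to 5.27 there, against 2.43 to 3.09 in the other 5 libraries, with 4 of the 6 under 1 cRPKM everywhere, and 6 macrophage markers to 23.2, against 16.3 to 19.9. The part of these cells in the collagen levels was not tested.

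**Figure D4:**
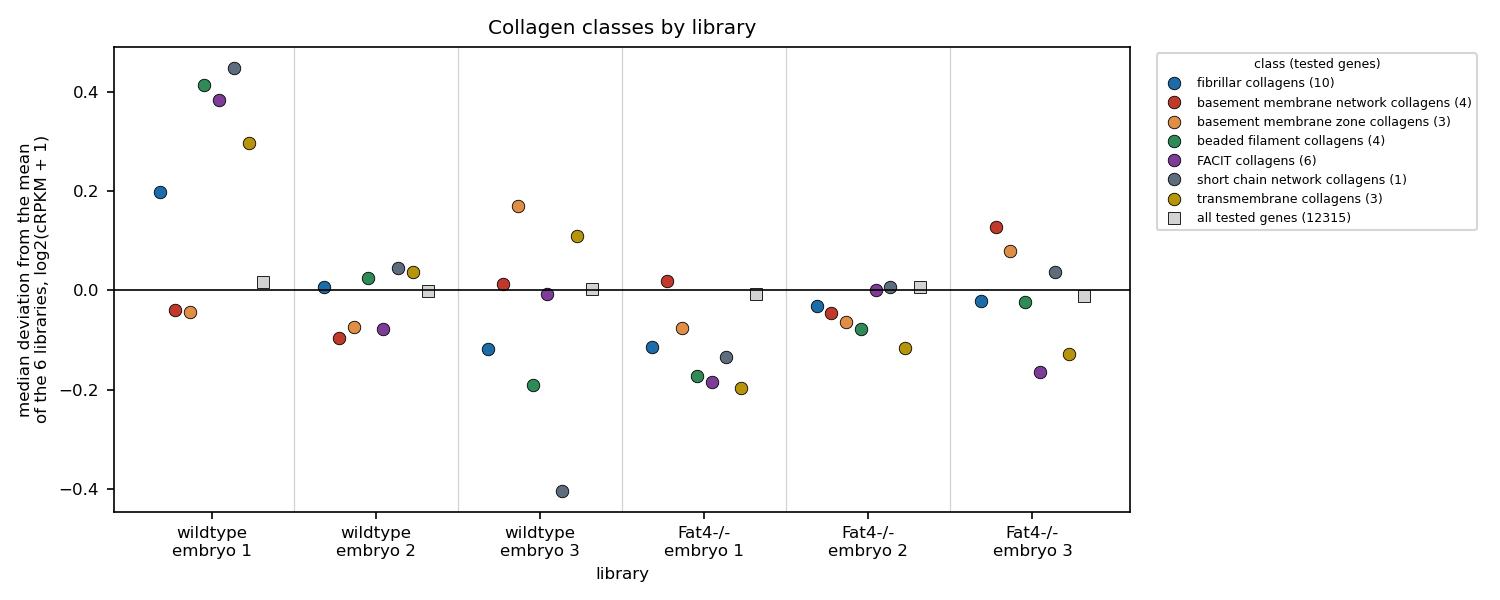
Median deviation of the tested chains of each collagen class from the mean of the 6 libraries, on the log2(cRPKM + 1) scale, by library; the grey square is the same over all 12315 tested genes. Fibrillar, type VI and FACIT chains lie at 0.20 to 0.42 in wildtype embryo 1, where the basement membrane classes lie at -0.04. Transmembrane chains lie at 0.30 there and the 1 tested short chain gene at 0.45.

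Chains that share a trimer were compared as ratios, for the 9 of 11 pairs in which both chains averaged at least 1 cRPKM. With 3 embryos against 3 the exact 2-sided permutation test cannot give a p below 0.1, so no pair could pass, and adjusted over the 9 pairs the lowest p was 0.225. The Col1a1 to Col1a2 ratio, which in the protein is 2 to 1, was 1.37 ± 0.0828 in wildtype and 1.39 ± 0.0610 in mutant libraries (SD, n = 3, exact p = 0.8). Col6a1 to Col6a2 was 1.10 ± 0.0615 and 1.10 ± 0.0165 (exact p = 0.9). For both pairs the groups overlapped.

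The groups did not overlap for 4 of the 9 pairs. For the levels of single genes this held for 18.2% of all tested genes, and no such share was computed for ratios. Col9a1 to Col9a2 was 1.21, 1.27 and 1.44 in the wildtype embryos against 2.09, 1.65 and 1.93 in the mutants, and Col9a3 to Col9a2 was 0.737, 0.623 and 0.772 in the wildtype embryos against 0.957, 0.931 and 0.897 in the mutants (exact p = 0.1 for each). Col9a2 is the lower term in both, so they are not independent. Col4a1 to Col4a2 was 1.71, 1.67 and 1.73 in the wildtype embryos against 1.58, 1.61 and 1.58 in the mutants, the tightest of the pairs (exact p = 0.1). Col11a1 to Col11a2 was 3.85 ± 0.228 and 3.29 ± 0.270 (SD, n = 3, exact p = 0.1). Col4a5 to Col4a6 (exact p = 0.6), Col5a1 to Col5a2 (0.7) and Col6a3 to Col6a1 (0.6) overlapped.

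**Figure D5:**
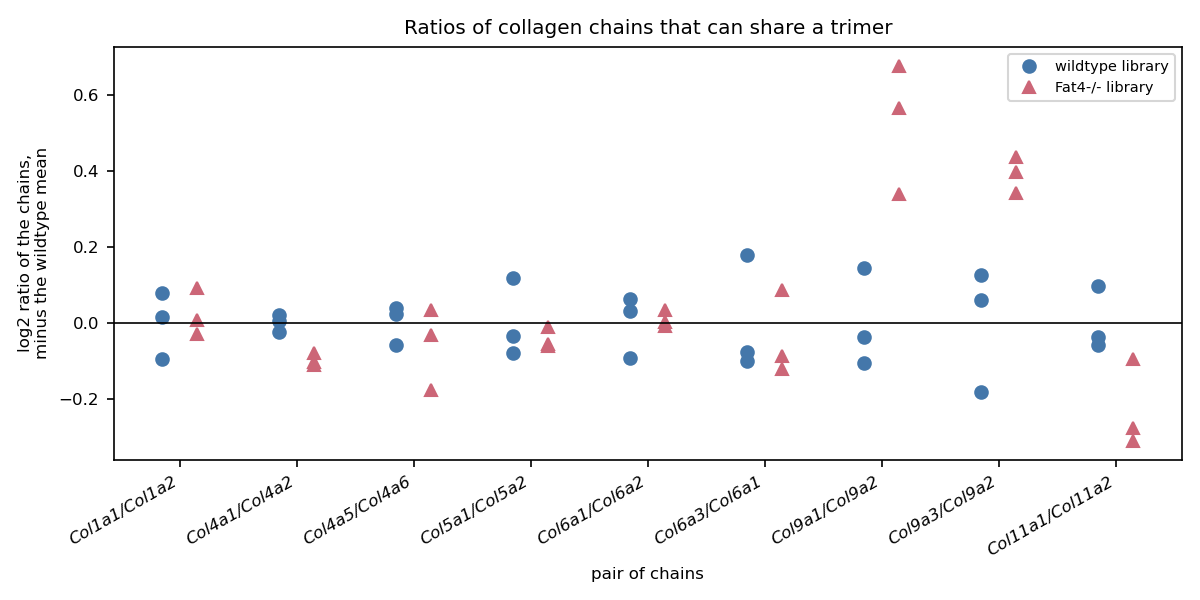
Log2 ratio of the chains in each of 9 pairs, minus the wildtype mean of the pair, in the 3 wildtype (circles) and 3 Fat4-/- (triangles) libraries. Both ratios to Col9a2 are higher in every mutant library, Col4a1 to Col4a2 and Col11a1 to Col11a2 lower, and the other 5 pairs overlap.

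The genes that modify, export, cleave and bind collagen chains had fold changes mostly below 0. Of 62 genes in 5 lists, 51 were tested, of which 1 fell (0.877% of all genes fell) and none rose (0.552%). At an unadjusted p under 0.05, 8 were lower and none higher, against 7.97% and 5.08% of all genes. Fold changes were below 0 for 41 of the 51, with a median of -0.06, against -0.01 and 56.8% below 0 for all genes. Without wildtype embryo 1 this was 32 of 50 (64.0%, against 53.3% of all genes), with 7 lower (14.0%, against 5.70%) and 1 higher (2.00%, against 3.68%) at an unadjusted p under 0.05. The gene that fell was Tgm2, a transglutaminase that cross-links matrix proteins, at 10.40, 7.58 and 9.21 cRPKM in the wildtype embryos against 5.01, 5.75 and 6.16 in the mutants (log2 fold change -0.59, SE 0.105, limma adjusted p = 0.0376). Its call ended without any 1 library other than wildtype embryo 2 (adjusted p up to 0.130). In the same list of cleavage and cross-linking, with 12 tested, Lox, the lysyl oxidase that cross-links fibrils, measured 13.89, 10.52 and 9.07 in the wildtype embryos against 7.48, 6.66 and 7.46 in the mutants (-0.55, adjusted p = 0.0846). Both enzymes, named for the lowest p-values of the list, were lower in every mutant than in any wildtype embryo. The same held for 11.0% of all tested genes, and every other tested gene of the list overlapped.

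In the chain modification list none of 14 tested passed and 2 were lower at an unadjusted p under 0.05, against 7.97% of all genes. Leprel1, a prolyl 3-hydroxylase that acts on type IV collagen, measured 4.38, 3.83 and 4.74 cRPKM in the wildtype embryos against 3.20, 2.52 and 3.15 in the mutants (-0.43, limma adjusted p = 0.0660). Its relative Leprel2 was at 27.4 ± 1.31 and 25.4 ± 0.601 (adjusted p = 0.378). In the folding and export list none of 11 passed and 2 were lower at an unadjusted p under 0.05, against the same 7.97%. Sec24d, a coat protein of the vesicles that carry procollagen, measured 17.39, 16.87 and 17.56 in the wildtype embryos against 15.31, 15.62 and 15.03 in the mutants (-0.16, adjusted p = 0.0911), and its partner in cargo loading, Mia3, was at 23.2 ± 0.650 and 21.5 ± 0.794 (adjusted p = 0.339).

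Of 5 tested fibril binding proteoglycans none passed. Bgn, for biglycan, measured 45.51, 39.55 and 41.28 cRPKM in the wildtype embryos against 32.96, 28.40 and 35.24 in the mutants (-0.38, limma adjusted p = 0.0699), without overlap. Fmod, for fibromodulin, was at 1.29 ± 0.427 and 0.887 ± 0.0651 (adjusted p = 0.420), and passed the minimum through its wildtype values alone. Of 9 tested collagen receptors none passed. Ddr2, a receptor kinase for fibrillar collagen on mesenchymal cells, measured 16.13, 12.83 and 12.58 in the wildtype embryos against 11.74, 11.37 and 11.54 in the mutants (-0.23, adjusted p = 0.274). Gpr56, a receptor that binds type III collagen, was at 8.21 ± 1.69 and 6.65 ± 0.313 (adjusted p = 0.388). Stroma markers, which include the matrix gene Postn, summed to 350 to 420 cRPKM in wildtype and 329 to 354 in mutant libraries. Of the 9, 3 (Pdgfra, Tcf21 and Snai2) were lower in every mutant than in any wildtype embryo, against 11.0% of all genes tested. The rest (Foxd1, Meis1, Twist1, Ntn1, Pdgfrb and Postn) overlapped. In whole kidneys fewer stromal cells cannot be told apart from less RNA per cell. The part of either in the lower values was not tested, nor was that of the uneven sex apart from the Y-linked covariate.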

How the data were processed

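Total RNA from the kidneys of 6 embryos was sequenced as 1 library each. The authors deposited 1 table of 22667 genes in cRPKM, a corrected RPKM. Reads were trimmed, per the file headers, and Bowtie and mm9 are named in the submitters' processing notes; versions, the correction and the handling of strand and shared reads are not given in the sources used here. Columns were matched to samples by the header text in the descriptions, and 1114 genes without values were left out.

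The 12315 genes averaging 1 cRPKM or more entered limma 3.58.1 (R 4.3.3) on the log2(cRPKM + 1) scale, with lmFit and a trended eBayes, 2-sided tests of genotype alone, Benjamini-Hochberg adjustment over all of them and calls at 0.05. The scale understates changes of low genes. Ratios of chains were compared by exact permutation. The code was tested on simulated data. Positions came from GENCODE M21 (GRCm38), which differ from mm9.

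The members, classes and lists were chosen with earlier results of these data known. Values per library were given for chains with an unadjusted p under 0.05, the 2 highest of each class and those in tested ratios, and for the lists' called genes or their 2 lowest p-values. Further values per library (such as those of Col14a1, Col6a6 and Col13a1) were chosen after they were seen. Alternatives were other pseudocounts, minimum levels, scalings, library weights, an embryo block, a Y-linked covariate and leaving out each library. Counts without wildtype embryo 1 and marker counts by gene were added after the data were seen.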

Additional observations from a re-analysis of the deposited data

How the results depend on the processing

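Genes called numbered 176, and 32 with no minimum level, 109 with a minimum of 5 cRPKM, 2 with the Y-linked covariate and 24 to 132 without 1 library. Collagen chains called numbered 2, and 1 with no minimum, 0 with the covariate (where 689 genes had an unadjusted p under 0.05 in limma) and 1 to 2 without 1 library. Genes of the modification, export, assembly and receptor lists called numbered 1, and 0 with no minimum, 0 with library weights, 0 with the covariate and 0 to 1 without 1 library. Pseudocounts of 0.1 and 0.5, quantile normalisation, median ratio scaling, library weights and a minimum of 5 cRPKM kept both collagen calls.

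The embryo numbers pair no animals in the labels. Deviations of same-numbered embryos correlated at 0.0986, 0.206 and 0.277 across genes. Wildtype embryos 2 and 3 correlated best with the mutant of the same number, and wildtype embryo 1 with mutant embryo 2 (0.227). With the replicate block 273 genes, 2 collagen chains and 3 genes of the other lists were called.

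Without 1 library the log2 fold change changed sign for 10 chains, none of them called: it ran from -0.19 to 0.034 for Col12a1, -0.11 to 0.033 for Col15a1, -0.15 to 0.014 for Col18a1, -0.29 to 0.023 for Col1a1, -0.32 to 0.048 for Col1a2, -0.20 to 0.054 for Col3a1, -0.077 to 0.075 for Col4a1, -0.24 to 0.013 for Col5a2, -0.0035 to 0.42 for Col6a6 and -0.28 to 0.15 for Col8a2. With library weights Col15a1 was at 0.025 and Col4a1 at 0.039. The cause was not tested. Of 455 fits of single chains, 435 kept direction and side of the threshold, 13 changed sign and 7 lost a call. The number of embryos limits the precision. Read totals are not in the table, so the part of read depth in the precision was not tested.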

Other observations

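Emid2 (ENSMUSG00000004415), the older name of the type XXVI chain Col26a1, fell outside the naming rule and was chosen after its values were seen. It measured 61.63, 61.15 and 54.93 cRPKM in the wildtype embryos against 64.62, 71.95 and 68.22 in the mutants, above every collagen chain but Col3a1, Col1a1, Col1a2, Col4a1 and Col4a2 on average. All mutants were above all wildtypes, with means of 59.2 ± 3.74 and 68.3 ± 3.67 cRPKM (SD, n = 3, log2 fold change 0.20, unadjusted p = 0.00822, limma adjusted p = 0.172).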
